A study of Mus musculus with 51 samples.

Results

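The clustered protocadherins were taken as the 58 genes whose symbols name an alpha, beta or gamma cluster member (Pcdha, Pcdhac, Pcdhb, Pcdhga, Pcdhgb or Pcdhgc followed by a number), out of 24564 genes in the count table. They comprised 14 alpha, 22 beta and 22 gamma genes, of which 5 were C-type genes (Pcdhac1, Pcdhac2, Pcdhgc3, Pcdhgc4 and Pcdhgc5) and 53 were alternate genes. Pcdha4, Pcdha6 and Pcdha7 had 0 counts in all 51 libraries, so 55 genes carried data. Separate rows named Pcdha4-g, Pcdha6-g and Pcdha7-g held 39, 120 and 111 counts in all and were not counted as members.

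Clustered protocadherins are cadherin-type adhesion proteins of the neuronal surface. Each alternate isoform is read from its own promoter and first exon, and single neurons are known to use a small, largely random choice of them, while C-type promoters are used more uniformly. In the alpha and gamma clusters every first exon is spliced to shared constant exons, and beta genes have a single exon. The proteins form dimers in cis and bind the same isoform in trans, and they are known for the self-avoidance of neurites and for axon spacing. Pcdhac2 is known to be needed for the even spread of serotonergic axons.

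Neurons sorted from adult mouse brain were profiled by bulk Smart-seq2, which makes RNA-seq libraries from small amounts of RNA. The study asked how such neurons differ without a working Polycomb repressive complex 2 (PRC2), which methylates lysine 27 of histone H3. Dopaminergic (mDA) libraries came from the DatCreEed strain, in which the name points to Cre under the dopamine transporter promoter, and serotonergic (5HT) libraries from the SertCreEed strain, named for the serotonin transporter promoter. Eed encodes a core PRC2 subunit, and each strain had animals labelled wt and mutant, 1 animal per library. At 4 months there were 9 mDA libraries labelled wt and 10 labelled mutant, and at 8 months 8 of each genotype. The 5HT data comprised 16 libraries, 4 for every genotype and age. Both sexes were present in the cell types as a whole. Among the 4-month mDA libraries of set1, sex followed genotype, with males only in wt and females only in mutants. In set3 it was the reverse at 4 months, with 2 wt females and 2 mutant males, and at 8 months set3 held only 2 wt females. The 5HT libraries were all of sequencing set1, and the mDA libraries came from set1, set2 and set3. The labels do not say whether wt animals carried Cre, nor which part of Eed was deleted.

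Library totals ran from 1644460 to 12250492 counts. Levels are given in CPM, counts scaled to a common library size with TMM factors (counts per 1e+06), and 3 counts, taken as the floor, were worth 0.245 to 1.82 CPM depending on the library. Eed counts do not check the labels, since the deleted part is not known: Eed was at 14.2 ± 6.4 CPM in mDA wt and 23.8 ± 9.24 CPM in mDA mutants at 4 months (SD, n = 9 and 10). The 6 serotonergic markers summed to 13.0 to 70.2 CPM in mDA and 1151 to 7518 CPM in 5HT libraries. Th, the rate-limiting enzyme of dopamine synthesis, was at 599 to 3051 CPM in the mDA groups and 2.97 to 35.6 CPM in the 5HT groups. The sum of the 6 dopaminergic markers overlapped, at 2988 to 10070 CPM in mDA and 1493 to 4124 CPM in 5HT libraries. In the comparison of wt cell types below, 4 of them were higher in mDA and 1, Ddc, was lower. Th and the serotonergic sum thus separated the cell types, and the dopaminergic sum did not. In these bulk samples, fewer cells using a gene and less RNA per cell cannot be told apart.

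By RefSeq for GRCm38 the 3 clusters lie in a row on chromosome 18, on the plus strand for the 57 members with a matched GENCODE transcript. The alpha genes spanned 36930285 to 37188897, the beta genes 37264998 to 37521419 and the gamma genes 37661775 to 37841873. Constant exons made up 2860 bases of each matched alpha transcript, and up to 2119 bases of a gamma transcript. How reads from those shared exons were assigned is not given in the sources used here, and levels of single alpha and gamma genes carry that uncertainty. Own exons of neighbouring genes were alike in part, with at most 16.5% of the 50-base words of one member found in another. Whether the counting used strand is not given either, and antisense transcription of first exons would then be counted with the gene. RefSeq lists Pcdhgb8 as a transcribed pseudogene.

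The members differed between the wt cell types. Of 55 tested members, 25 were higher in mDA neurons, all of them alternate genes, and 2 were lower, the alpha C-type genes Pcdhac1 and Pcdhac2. Over all 16178 genes tested, 11.3% were called higher and 10.4% lower (edgeR quasi-likelihood test, Benjamini-Hochberg adjusted p under 0.05, 17 against 8 libraries). The median log2 fold change of the members was 1.18, beside 0.03 over all genes tested. Cell type coincided with strain, and all 5HT libraries were of set1, so cell type and strain cannot be told apart.

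Pcdhac2 reached 61.7, 92.2, 94.0 and 106 CPM in the 5HT wt libraries at 4 months and 58.7, 94.9, 117 and 118 CPM at 8 months. In mDA wt its lowest, median and highest levels were 8.32, 12.9 and 22.3 CPM at 4 months and 6.13, 10.6 and 31.5 CPM at 8 months. Every 5HT wt library thus stood above every mDA wt library. The means were 14.6 ± 6.79 CPM in mDA and 92.8 ± 22.5 CPM in 5HT (SD, n = 17 and 8), a log2 fold change of -2.73 (SE 0.22, adjusted p = 4.6e-12 by edgeR).

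Pcdhac1, the other alpha C-type gene, was at 47.6, 48.6, 54.3 and 55.0 CPM in 5HT wt at 8 months. At 4 months it was at 1.3, 19.3, 29.4 and 44.7 CPM. In mDA wt its lowest, median and highest levels were 0.446, 1.93 and 6.02 CPM at 4 months and 0, 1.66 and 4.61 CPM at 8 months. The 5HT wt library of animal S369, at 1.3 CPM, lay inside the mDA range, and the other 7 lay above it. The log2 fold change was -4.30 (SE 0.47, adjusted p = 1.16e-08 by edgeR).

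The 2 alpha C-type genes therefore dominated the alpha cluster in 5HT libraries. They gave 75.7% ± 5.36 of the counts assigned to alpha genes in 5HT wt and 19.8% ± 7.59 in mDA wt (SD, n = 8 and 17). Over all 51 libraries the share ran from 49.8% to 82.8% in 5HT and from 4.42% to 38.6% in mDA, with no overlap. Their summed level did not overlap either, at 49.1 to 176.1 CPM in 5HT and 4.28 to 31.5 CPM in mDA.

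The gamma C-type genes did not follow them. Pcdhgc4, which is known for its part in the survival of neurons, was at 32.1 ± 6.90 CPM in mDA wt and 35.5 ± 14.3 CPM in 5HT wt (SD, n = 17 and 8). Its log2 fold change was -0.20 (SE 0.18, adjusted p = 0.477 by edgeR), and the ranges, 23.6 to 52.5 and 20.1 to 61.2 CPM, overlapped almost fully. Pcdhgc5 was at 3.44 to 31.0 CPM in mDA wt and 0.622 to 15.0 CPM in 5HT wt, with a log2 fold change of 0.93 (SE 0.40, adjusted p = 0.0902 by edgeR). Pcdhgc3 was low in both, at 2.05 ± 2.53 and 1.42 ± 1.44 CPM, and 4 mDA and 1 5HT wt libraries had 0 counts of it.

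**Figure D1:**
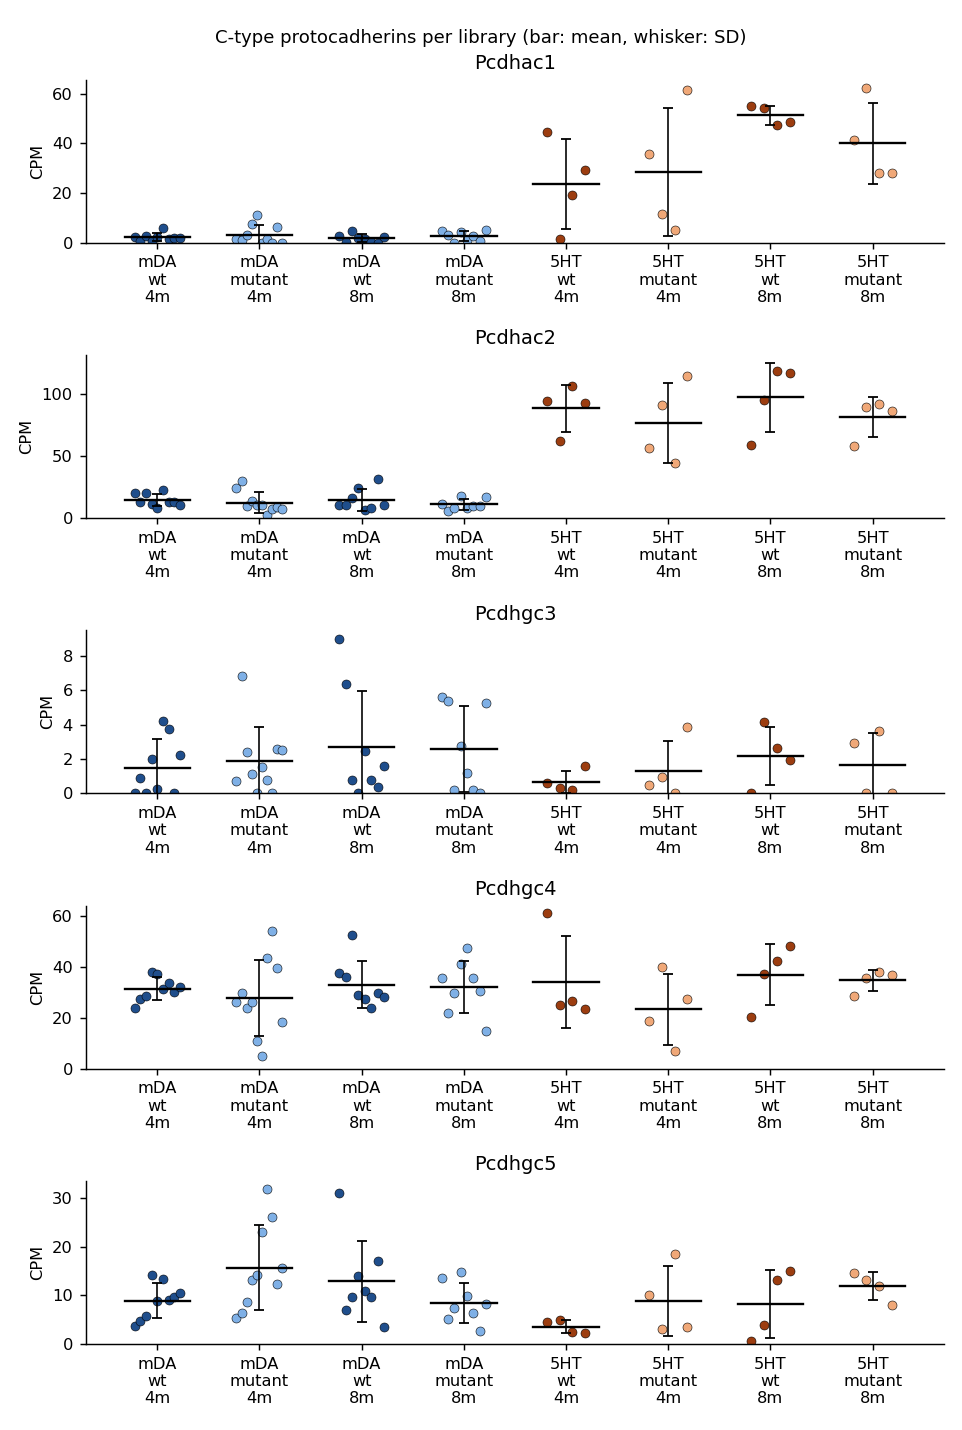
CPM of the 5 C-type genes (y axes, linear, starting at 0) in each library of the 8 groups (x axis), with bars for means and whiskers for SD. Pcdhac1 and Pcdhac2 are high in the 5HT groups, where Pcdhac2 stays above 43 CPM, while Pcdhgc4 lies in the same range in both cell types.

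Among alternate genes the beta cluster had 1 sign throughout, with sizes that varied widely. All 22 beta genes had a positive log2 fold change for mDA over 5HT, with a median of 1.52 and a lowest value of 0.16, and 14 were called higher. The 3 highest fitted values, those of Pcdhb2, Pcdhb13 and Pcdhb1, rest on 3, 7 and 4 counts in the 5HT wt libraries. Pcdhb18 was at 3.38 to 16.3 CPM in mDA wt, with a median of 9.22, and at 0.351 to 6.01 CPM in 5HT wt, a log2 fold change of 2.26 (SE 0.37, adjusted p = 1.56e-05 by edgeR). Most mDA libraries were above the 5HT range, with some overlap.

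Pcdhb13 was the only alternate gene whose wt groups did not overlap, and the share of all genes without overlap was not counted. Pcdhb13 was at 0.899 to 18 CPM in mDA wt and at 0 to 0.351 CPM in 5HT wt, where 3 of 8 libraries had 0 counts and the group had 7 counts in all. The log2 fold change was 4.36 (SE 0.72, adjusted p = 1.9e-05 by edgeR), and it rests on those few 5HT counts. In the mutants the ranges of this gene overlapped.

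Pcdhb15 and Pcdhb14 also passed the test. Pcdhb15 was at 1.11 to 14.4 CPM in mDA wt and 0 to 3.05 CPM in 5HT wt (log2 fold change 3.47, SE 0.62, adjusted p = 6.23e-05 by edgeR). Pcdhb14 was at 6.19 to 29.3 CPM and 0.205 to 8.29 CPM (log2 fold change 2.15, SE 0.44, adjusted p = 0.000315 by edgeR). Pcdhb2 had 3 counts in the 8 5HT wt libraries together and reached 0.207 CPM at most there, against 7.13 CPM at most in mDA wt, so its fitted fold is not given.

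In the gamma cluster 9 of 22 genes were called higher in mDA, 5 of 12 gamma A and 4 of 7 gamma B genes. Pcdhgb8 was at 0.664 to 17.2 CPM in mDA wt, with a median of 4.93, and at 0 to 4.90 CPM in 5HT wt (log2 fold change 2.71, SE 0.54, adjusted p = 0.000256 by edgeR). Pcdhga7 was at 14.2 ± 8.28 CPM in mDA wt and 5.46 ± 5.42 CPM in 5HT wt (log2 fold change 1.69, SE 0.39, adjusted p = 0.00155 by edgeR). Its 5HT levels differed by age, at 0.176 to 3.90 CPM at 4 months and 4.77 to 16.7 CPM at 8 months.

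Pcdhga8 and Pcdhga9 were the other gamma genes with the smallest p. Pcdhga8 was at 3.44 to 26.6 CPM in mDA wt and 1.05 to 6.43 CPM in 5HT wt (log2 fold change 1.53, SE 0.36, adjusted p = 0.00191 by edgeR). Pcdhga9 was at 1.99 to 38.3 CPM and 0.178 to 9.44 CPM (log2 fold change 2.20, SE 0.56, adjusted p = 0.00376 by edgeR). The groups of both genes overlapped.

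Alpha alternate genes differed less. Of 9 tested, 7 were positive and 2 passed the test. Pcdha8 was at 5.99 to 30.6 CPM in mDA wt and 1.96 to 15.3 CPM in 5HT wt (log2 fold change 1.03, SE 0.34, adjusted p = 0.0273 by edgeR). Its call was lost without S369, S374, S385 (5HT) or C45 (mDA), with an adjusted p of up to 0.0745, and it was not called in the mutants. Pcdha1 was at 3.44 to 16.7 CPM and 0.325 to 8.21 CPM (log2 fold change 1.13, SE 0.42, adjusted p = 0.0476 by edgeR), and its adjusted p was 0.05 or more when any of 17 of the 25 libraries was left out.

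**Figure D2:**
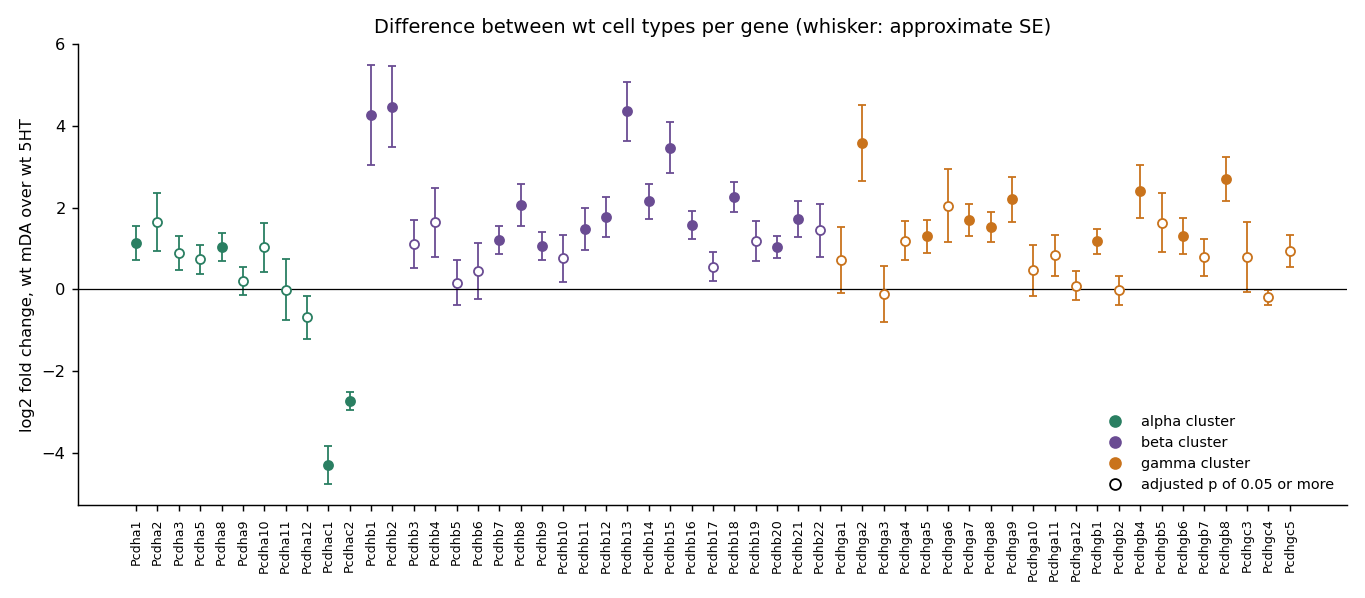
Log2 fold change of wt mDA over wt 5HT (y axis) for the 55 tested members in gene order along the clusters (x axis), with approximate SE whiskers and filled points for adjusted p under 0.05. Pcdhac1 and Pcdhac2 are the only filled points below 0, all beta genes lie above 0, and the value of Pcdhb2 rests on 3 counts in 5HT.

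The same direction was seen in the 26 mutant libraries, which come from other animals of the same strains. Of 54 members tested there, 23 were called higher in mDA and 2 lower, beside 8.13% and 6.37% of 17186 genes. The median log2 fold change there was 1.26, and 51 of the 54 were positive. The 2 lower genes were again Pcdhac2 and Pcdhac1, with log2 fold changes of -2.76 and -3.53. Of the 25 genes higher in wt, 17 were called higher in the mutants, and 24 were positive. The remaining gene, Pcdhb1, was too low there to be tested. Pcdhgb8 and Pcdhb15 were not called there, with log2 fold changes of 0.98 and 0.86. With the 4-month or the 8-month wt libraries alone 16 members were called in either case, and with the set1 mDA libraries alone 14 were. These numbers were 27 with all wt libraries, and Pcdhac1 and Pcdhac2 were called lower in each of these fits. The shares of all genes called in the fits with fewer wt libraries are not given here, so their counts have no background beside them. Pcdhga2, called higher in the wt mDA libraries as a whole, had a log2 fold change of -0.035 at 8 months alone.

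Summed over the 53 alternate genes, the level was 452 ± 76.4 CPM in mDA wt and 216 ± 46.3 CPM in 5HT wt (SD, n = 17 and 8). Beta genes gave 218 ± 43.9 and 95.3 ± 34.3 CPM of this. Gamma A genes summed to 92.4 ± 22.8 and 44.4 ± 18.2 CPM, gamma B genes to 72.5 ± 23.8 and 34.5 ± 15.6 CPM, and alpha alternates to 68.3 ± 18.2 and 42.1 ± 14.3 CPM. The wt ranges of the alternate sum, 320 to 601 and 151 to 266 CPM, did not overlap. Over all libraries the highest 5HT sum, 348 CPM in an 8-month mutant, lay inside the mDA range.

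**Figure D3:**
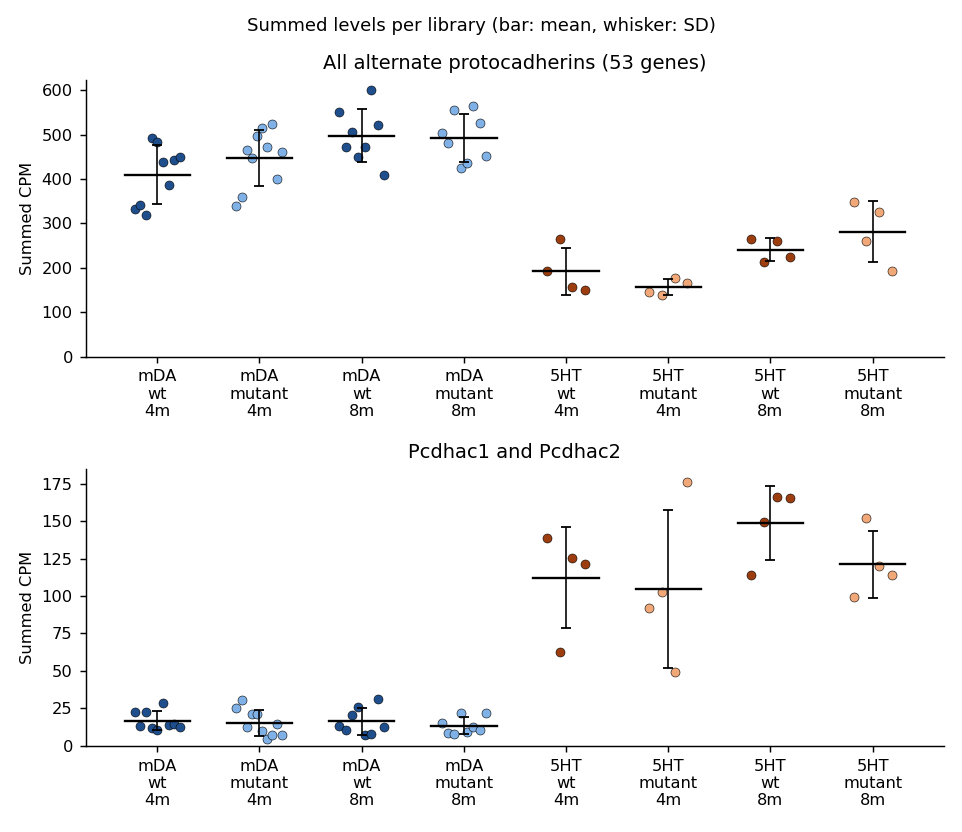
Summed CPM per library (y axes, starting at 0) of the 53 alternate genes (top) and of Pcdhac1 with Pcdhac2 (bottom) in the 8 groups, with bars for means and whiskers for SD. The alternates are higher in mDA and the alpha C-type genes higher in 5HT libraries.

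Beside this difference, fewer genes were detected in 5HT libraries: 16202 to 19616 genes had a count in 5HT wt and 18344 to 20751 in mDA wt. Of the members, 43 to 52 had a count in 5HT wt libraries and 52 to 55 in mDA wt libraries. Other cell types' markers overlapped between the wt groups. The 10 astrocyte markers summed to 486 to 1012 CPM in mDA and 495 to 1214 CPM in 5HT wt, and the 10 oligodendrocyte markers to 437 to 1592 and 611 to 1654 CPM. The 5 GABA and glycine markers summed to 253 to 488 and 180 to 390 CPM, and the 4 oligodendrocyte precursor markers to 12.3 to 47.6 and 4.39 to 62.4 CPM. The 8 endothelial and mural markers summed to 5.04 to 35.5 and 12.5 to 76.5 CPM, and the 8 microglia markers to 10.1 to 65.7 and 19.3 to 108 CPM. By gene, over all genes tested, 11.3% were higher and 10.4% lower in mDA wt. Of the astrocyte markers 1 was higher and 3 were lower there, and 0 oligodendrocyte markers were higher and 4 lower. Of the GABA and glycine markers 3 were higher and 2 lower, and of the glutamate markers, which summed to 93.5 ± 23.2 CPM in mDA and 121 ± 33.4 CPM in 5HT wt (SD, n = 17 and 8), 1 was higher and 1 lower. Of the endothelial and mural markers 2 were lower, and of the microglia markers 1 was. The part of these differences in the protocadherin levels was not tested.

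The shares and sums above took no account of gene length, and single genes were ranked per kilobase. The length used was that of the first exon in GENCODE for alpha and gamma genes, and the RefSeq gene length for beta genes. For some beta genes the GENCODE transcript is longer than that, as for Pcdhb14 (8695 against 3438 bases), and their per-kilobase levels would be lower with it. In mDA wt the order was led by Pcdhgc4 with 11 CPM per kb, then Pcdhgb1 with 9.47, Pcdha8 with 7.71 and Pcdhb7 with 7.10. In 5HT wt Pcdhac2 led with 30.6 CPM per kb, followed by Pcdhac1 with 14.7, Pcdhgc4 with 12.2 and Pcdhgb1 with 4.56. Pcdhac1 held rank 51 in mDA wt. The animal-to-animal spread of these levels was wide, so neighbouring ranks are not separated.

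No single alternate gene prevailed in these pools of cells. Per kilobase, the top alternate of a library held 5.57% to 11.2% of the alternate total in mDA and 6.21% to 24.7% in 5HT, and 11 and 8 different genes were on top in at least 1 library of each. Pcdhgb1 was on top most often, in 12 of 35 mDA and 6 of 16 5HT libraries. It took 10 to 15 genes to reach 50% of the alternate total in mDA and 6 to 12 in 5HT. In the 4-month 5HT libraries these were 6 to 9 genes, and 4 to 13 alternates with counts elsewhere had 0 counts, against 1 to 6 in the 8-month ones.

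Members lay above the spread fitted at their abundance more often than all genes did. The median biological coefficient of variation of the tested members was 0.546 in the fit of mDA libraries, beside 0.335 over all genes, and 0.905 in the fit of 5HT libraries, beside 0.424. The fitted trend at the members' own abundance had medians of 0.542 and 0.901. The fit draws single genes toward this trend, so the nearness of these medians is in part built in. Above the trend lay 67.3% of tested members in mDA and 64.7% in 5HT, beside 41.8% and 41% of all genes. Pcdhb19 in 5HT wt at 4 months shows a wide spread, with 0.176, 2.32, 5.34 and 38.3 CPM in the 4 animals.

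The comparison that the study was built on, mutant against wt, gave no called member in any of its 4 forms. In mDA at 4 months 0 of 55 tested members passed (1.17% of 15425 genes did), and 6 were higher and 1 lower at an unadjusted p under 0.05. In mDA at 8 months 0 of 55 passed (4.32% of 15425 genes), with 3 higher and 3 lower. In 5HT 0 of 51 passed at 4 months (0.0128% of 15633 genes), with 2 higher and 2 lower, and 0 of 51 at 8 months (0.397% of 15633 genes), with 0 at that unadjusted level. At that unadjusted level these were 12.7%, 10.9%, 7.84% and 0% of the tested members, beside 14.5%, 17.5%, 6.4% and 4.9% of all genes tested. DESeq2 also called 0 in each. The median log2 fold changes were 0.18, -0.02, 0.16 and 0.18 in this order, beside -0.01, 0.02, 0.01 and 0.01 over all genes tested. The clusters did not all lean alike. In 5HT at 4 months 13 of 18 beta genes were negative (median -0.87) and 9 of 11 alpha genes positive (median 0.47). In 5HT at 8 months 10 of 18 beta genes were positive (median 0.26). In mDA at 4 months 17 of 22 gamma genes were positive (median 0.25) and 12 of 22 beta genes negative (median -0.03). These leanings were not tested. An adjusted p above the threshold does not show that these genes are alike in the genotypes. Beside these values, the 8-month mutants had lower Th in mDA (725 ± 106 against 1696 ± 342 CPM in wt, n = 8 and 8) and lower Tph2, the serotonin-synthesis enzyme, in 5HT (400 ± 109 against 2724 ± 511 CPM, n = 4 and 4). The GABA and glycine markers summed to 677 to 971 CPM in 8-month mDA mutants and 253 to 488 CPM in wt, and to 651 to 760 and 268 to 390 CPM in 5HT. In mDA at 8 months the astrocyte markers summed to 1193 ± 654 CPM in mutants and 656 ± 217 CPM in wt, and the endothelial and mural markers to 10.1 to 486 and 5.04 to 35.5 CPM (n = 8 and 8). There 4 of 5 GABA and glycine, 2 of 10 astrocyte and 1 of 8 endothelial and mural markers were called higher, and 5 of 6 dopaminergic markers lower. The part of these shifts in the protocadherin values was not tested.

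Among the C-type genes in mutants, Pcdhac2 had log2 fold changes of -0.24 (SE 0.31) in mDA at 4 months, -0.43 (SE 0.38) in mDA at 8 months, -0.19 (SE 0.28) in 5HT at 4 months and -0.24 (SE 0.28) in 5HT at 8 months. In the 5HT mutants it was at 43.9, 56.3, 91.1 and 115 CPM at 4 months and 57.5, 85.7, 89.5 and 91.9 CPM at 8 months, overlapping the wt values given above. Pcdhgc4 had log2 fold changes of -0.13 (SE 0.25), -0.02 (SE 0.31), -0.53 (SE 0.40) and -0.15 (SE 0.39) in the same order.

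Pcdhac1, far lower in mDA than in 5HT, had log2 fold changes of 0.59 (SE 0.78), 1.85 (SE 1.10), 0.28 (SE 0.62) and -0.38 (SE 0.64) in the same order, the mDA values resting on levels of at most 11.3 CPM. In the 5HT mutants it was at 5.14, 11.3, 35.6 and 61.5 CPM at 4 months and 27.9, 28.1, 41.5 and 62.5 CPM at 8 months, overlapping wt. Pcdhgc5 had 0.69 (SE 0.33), -0.55 (SE 0.39), 1.46 (SE 0.78) and 0.48 (SE 0.74), and Pcdhgc3 had 0.29 (SE 0.92), 0.89 (SE 1.07), 0.90 (SE 1.53) and -0.23 (SE 1.5). No C-type gene passed the test in any of the 4 comparisons, where the smallest adjusted p among them was 0.328, that of Pcdhgc5 in mDA at 4 months (edgeR).

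The alternates with the smallest p of each cluster in mDA missed the threshold. At 4 months Pcdhb9 was at 0.417 to 10.4 CPM in mutants and 4.03 to 18.5 CPM in wt (log2 fold change -0.93, SE 0.37, adjusted p = 0.211 by edgeR). Pcdhga9 was at 3.17 to 20.4 and 1.99 to 15.3 CPM (0.90, SE 0.37, adjusted p = 0.223), and Pcdha12 at 0.649 to 20.6 and 0.214 to 6.05 CPM (1.04, SE 0.51, adjusted p = 0.339). At 8 months Pcdhb19 was at 3.67 to 28.4 CPM in mutants and 8.37 to 33.2 CPM in wt (-1.04, SE 0.46, adjusted p = 0.219). Pcdhga3 was at 0 to 15.5 and 0.409 to 5.07 CPM (1.62, SE 0.68, adjusted p = 0.190). Pcdha3 at 4 months had -0.42 (SE 0.34, adjusted p = 0.626). All the ranges given here overlapped. In set1 alone at 4 months, where sex coincides with genotype, 2 members were called, Pcdhb15 and Pcdhb14.

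In 5HT at 4 months the differences were large in log2 terms but rested on few counts. Pcdhb12 was at 1.25, 1.93, 3.90 and 12.3 CPM in wt and 0, 0.155, 0.396 and 0.557 CPM in mutants (log2 fold change -3.92, SE 1.34, adjusted p = 0.620 by edgeR). Pcdhb21 was at 0.879, 1.78, 5.52 and 9.24 CPM in wt and 0, 0.186, 0.791 and 1.63 CPM in mutants (-2.59, SE 1.20, adjusted p = 0.745). At 8 months the same genes had log2 fold changes of 1.63 (SE 1.20) and 1.45 (SE 1.09), so the sign was the opposite one. The other alternates with the smallest p in 5HT were Pcdha12 (1.19, SE 0.84) and Pcdha3 (0.96, SE 1.02) at 4 months, and Pcdhga8 (1.27, SE 0.92), Pcdhgb7 (1.37, SE 1.01) and Pcdha10 (1.14, SE 1.09) at 8 months, with adjusted p of 0.920 and 0.966 at 4 months and 1 at 8 months.

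Pcdhga2 had 0 counts in the 4 wt 5HT libraries at 4 months, and the mutants were at 0, 0, 2.63 and 3.10 CPM. Against a floor of 3 counts over the wt group this is at least 9.2-fold higher on average, with 2 mutant libraries at 0. Pcdhga6 was at 0, 0, 0 and 0.176 CPM in wt and 0.396, 0.464, 1.67 and 2.77 CPM in mutants (adjusted p = 0.599 by edgeR). The median over members was 0.16 with Pcdhga2 at its fitted value or at its bound.

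**Figure D4:**
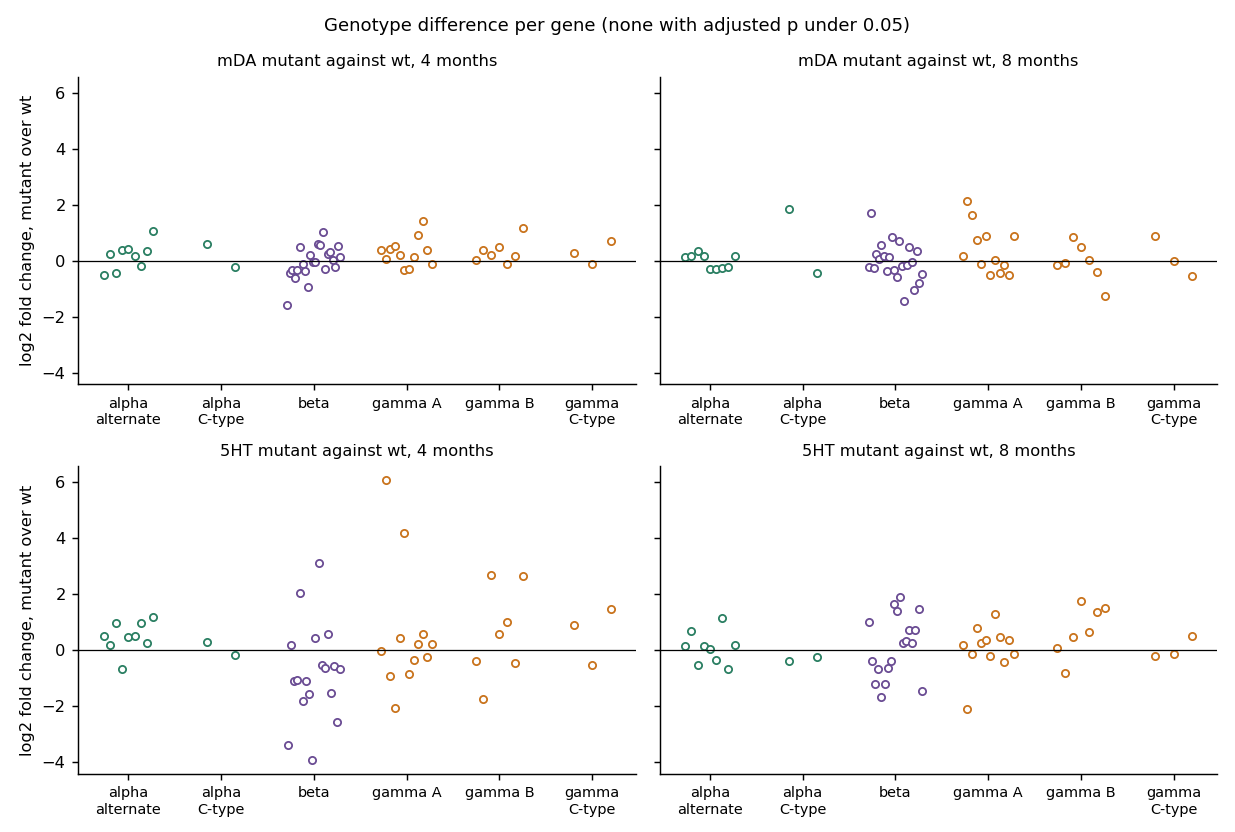
Log2 fold change of mutant over wt (y axes) for each tested member, by subfamily (x axes), in the 4 genotype comparisons. No point has an adjusted p under 0.05, and each panel has points on both sides of 0. In the 4-month 5HT panel 13 of 18 beta points lie below 0. The top point of that panel is Pcdhga2, whose fitted value depends on 0 wt counts.

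The genotype difference was then compared between ages. In mDA, 2 of 55 members (3.64%) differed between 8 and 4 months, both lower, Pcdhgb8 and Pcdhb15. Of 15425 genes, 2.35% were called lower and 3.76% higher, so the members' share is near the background, and the genes are described singly. In mDA wt at 4 months Pcdhgb8 had lowest, median and highest levels of 0.664, 4.26 and 10.1 CPM, and in mutants 0.858, 7.81 and 18.3 CPM. At 8 months they were 3.94, 11.2 and 17.2 CPM in wt and 0.603, 6.32 and 9.42 CPM in mutants. Mutants thus lay above wt at 4 months and below at 8 months, with overlap at both ages. The log2 fold changes were 1.16 (SE 0.46, adjusted p = 0.211) and -1.28 (SE 0.53, adjusted p = 0.178), and their difference was -2.44 (adjusted p = 0.0244 by edgeR).

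Pcdhb15 behaved alike. Its lowest, median and highest levels were 1.11, 4.29 and 14.4 CPM in wt and 0.244, 9.54 and 18 CPM in mutants at 4 months, and 2.90, 10.1 and 13.7 CPM and 0.373, 3.57 and 9.35 CPM at 8 months. The log2 fold changes were 1.02 (SE 0.47, adjusted p = 0.302) and -1.45 (SE 0.55, adjusted p = 0.138), with a difference of -2.47 (adjusted p = 0.0305 by edgeR). In neither gene did the genotype difference pass the test at 1 age. In the same comparison between ages, 4 of 5 GABA and glycine, 4 of 10 astrocyte, 4 of 10 oligodendrocyte and 1 of 3 glutamate markers were called higher and 4 of 6 dopaminergic markers lower, and their part in the values of both genes was not tested.

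Both calls depended on the terms of the fit. Without a term for sex the adjusted p was 0.0673 for Pcdhgb8 and 0.0989 for Pcdhb15. Pcdhb15 also missed the threshold without wt replicates D294, D296 (4 months) or C51 (8 months), at 0.0592, 0.0571 and 0.0517. Within set1 and within set2, each refitted alone, the signs were the same. In set1 at 4 months sex coincided with genotype and no sex term was fitted, so sex and genotype cannot be told apart in those values. In set1 Pcdhgb8 had log2 fold changes of 0.87 at 4 and -0.99 at 8 months and Pcdhb15 of 1.76 and -0.15, and in set2 they had 2.25 and -1.29, and 1.40 and -2.21. Set3 was not refitted alone. At 4 months its wt libraries were at 4.27 and 4.93 CPM for Pcdhgb8, and its mutants at 2.26 and 5.94 CPM. For Pcdhb15 its wt libraries were at 4.29 and 14.4 CPM, and its mutants at 6.38 and 6.56 CPM. In set3 mutants thus did not stand above wt for either gene. The fit of wt mDA libraries alone took each set label as the same at both ages. If a set differed between ages, age and set could not be told apart in it. In this fit 8 against 4 months gave 1.44 (SE 0.39) for Pcdhgb8 and 0.96 (SE 0.39) for Pcdhb15. Of 50 tested members 0 were called (0% of 13645 genes were). At an unadjusted p under 0.05 there were 8 higher and 2 lower (20% of tested members, beside 11.1% of all genes tested). DESeq2 called 3, Pcdhb21, Pcdhgb8 and Pcdhb19.

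**Figure D5:**
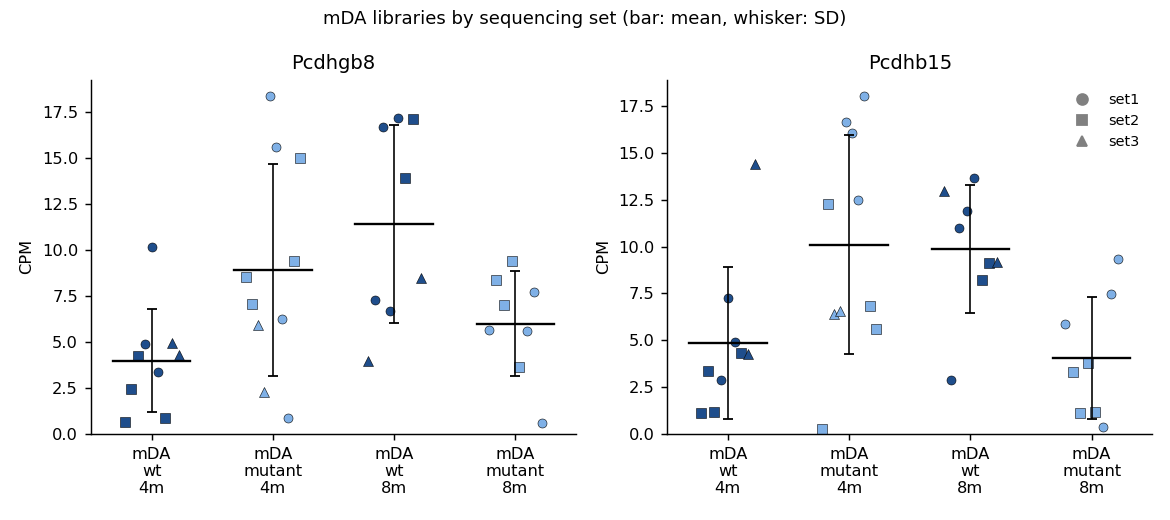
CPM of Pcdhgb8 (left) and Pcdhb15 (right) in each mDA library (y axes, starting at 0) by group, with symbols for the sequencing set, bars for means and whiskers for SD. Mutants are higher on average at 4 months and lower at 8 months, and the groups overlap.

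In the other comparisons no member passed. The genotype difference in 5HT at 8 against 4 months gave 0 of 51 (0.0128% of 15633 genes), with 2 higher and 2 lower at an unadjusted p under 0.05 and 0 by DESeq2. The genotype difference in mDA against that in 5HT gave 0 of 55 at 4 months (0.0925% of 18386 genes), with 6 higher and 2 lower at that level. Pcdhb12 came nearest, with a difference of 4.04 (adjusted p = 0.0765 by edgeR), and DESeq2 called Pcdhb12 and Pcdhb21. At 8 months it gave 0 of 55 (0.179% of 18386 genes), with 1 higher and 6 lower and 0 by DESeq2. In wt 5HT, 8 against 4 months gave 0 of 35 tested (0% of 13568 genes), with 4 higher and 0 lower, and 26 of the 35 were positive with a median log2 fold change of 0.78, beside 0.01 over all genes. DESeq2 called Pcdhga7 in that comparison. At an unadjusted p under 0.05 the shares of members were, in the order given, 7.84%, 14.5%, 12.7% and 11.4%. Over all genes tested they were 3.97%, 9.5%, 7.77% and 5.09%.

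Genes known to act on the clusters or beside them were set next to these results. Of 25 tested regulators, among them Ctcf, whose protein loops the promoters to their enhancers, 0 were called in any genotype comparison at 1 age. Ctcf had log2 fold changes of 0.49 (SE 0.16, adjusted p = 0.123) at 4 and -0.46 (SE 0.20, adjusted p = 0.210) at 8 months in mDA, and the difference of -0.94 was the 1 regulator called lower between ages (adjusted p = 0.0188 by edgeR). Smchd1, a chromatin protein known to silence the clusters, had 0.09 (SE 0.16) and -0.01 (SE 0.20). In wt, 11.3% of all genes tested were higher and 10.4% lower in mDA than in 5HT. Of the regulators 1 was higher and 2 were lower: Tet2, a DNA demethylase, with 0.61 (adjusted p = 0.00233), the cohesin subunit Smc3 with -0.43 (adjusted p = 0.00879) and the heterochromatin protein gene Cbx5 with -0.39 (adjusted p = 0.0169). Tet3 was the 1 regulator whose genotype difference differed between cell types at 4 months (1.65, adjusted p = 0.00300).

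Of 28 partners and downstream genes, 9 were higher and 1 lower in wt mDA, beside 11.3% and 10.4% of all genes tested. Ret, a receptor kinase found with protocadherins, led with a log2 fold change of 4.95 (SE 0.26, adjusted p = 7.63e-17), and Prkca had 2.54 (adjusted p = 4.86e-13), Nlgn1 1.28 (adjusted p = 1.3e-06) and Rac1 0.77 (adjusted p = 0.000662). In mutants at 8 months Rock1 fell by 0.69 (SE 0.15, adjusted p = 0.00377) and Nlgn3 rose by 0.67 (SE 0.17, adjusted p = 0.0138) in mDA, and Ret rose by 2.40 (SE 0.43, adjusted p = 0.00884) in 5HT. Ptk2b, a kinase that alpha and gamma protocadherins are known to restrain, was not called, at 0.68 (SE 0.46) and 1.58 (SE 0.54) in mDA at 4 and 8 months.

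Among 12 non-clustered protocadherins 6 were higher and 2 lower in wt mDA, beside 11.3% and 10.4% of all genes tested. Pcdh10 had a log2 fold change of 0.98 (adjusted p = 1.42e-07), Pcdh8 2.07 (adjusted p = 1.56e-07) and Pcdh7 0.96 (adjusted p = 6.31e-05), while Pcdh20 had -2.53 (adjusted p = 1.43e-07). In mDA mutants at 8 months Pcdh7 fell by 0.66 (adjusted p = 0.00866) and Pcdh15 by 0.62 (adjusted p = 0.0447). Of 17 classical cadherins tested, 8 were higher and 0 lower in wt mDA, led by Cdh11 with 2.07 (adjusted p = 2.04e-12), Cdh8 with 1.95 (adjusted p = 5.92e-11), Cdh20 with 3.02 (adjusted p = 3.28e-09) and Cdh4 with 1.75 (adjusted p = 1.97e-07).

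The 19 genes beside or between the clusters showed no shared direction in wt, with 1 higher and 3 lower in mDA and a median log2 fold change of -0.01. Over all genes tested 11.3% were higher and 10.4% lower. Taf7, which lies between the beta and gamma genes, had -0.10 (SE 0.18, adjusted p = 0.732). Hdac3, which lies near the gamma cluster and encodes a histone deacetylase, fell by 0.55 in mDA mutants at 4 months (SE 0.12, adjusted p = 0.00942).

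GC content of the own exons was lower in beta genes, with a median of 46.0%, than in alpha (53.2%) and gamma genes (52.6%). Over 49 tested alternates the wt log2 fold change had a Pearson r of -0.23 and a Spearman rho of -0.27 with GC content, and over the 22 beta genes 0.21 and 0.13. The genes share libraries and clusters, so these values are a description.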

How the data were processed

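The authors deposited raw read counts per gene, 1 column per library for 51 libraries. The submitters' processing notes name STAR 2.7.0a and the builds mm10 and GRCm38, and the counting tool is not given in the sources used here. No sample column was left out, and 0 pairs of columns were identical. Exons, shared lengths and GC content came from GENCODE M21 transcripts and gene positions from RefSeq, both for GRCm38. A reporter row, at most 0.00294% of a library, was kept out of tests.

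The tests used edgeR 4.0.16 (R 4.3.3) with TMM factors, filterByExpr at a minimum count of 10, robust quasi-likelihood fits over all genes, and adjusted p under 0.05 for a call. Terms were sequencing set within age and sex for the mDA genotype comparisons, and sex for 5HT and for wt cell types. The fit of all 51 libraries used set within cell type and age, and sex. For wt mDA between ages they were set, taken as the same at both ages, and sex. The SE is approximate, taken from the size of the fold change and its F statistic. DESeq2 1.42.0, other scaling, filters and terms, and leaving out libraries were alternatives. Replicates are separate animals by their numbers, and no label pairs them. Floors cover counting error only.

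Named genes were members called in a comparison (of more than 12, the 4 with the smallest p per cluster), the C-type genes, 2 per cluster with the smallest p in each genotype comparison, and up to 4 called genes per list. Pcdhb1, Pcdhb2 and Pcdhga2 in the cell types, Pcdhb19 and Pcdhga7 in 5HT wt, and Ctcf, Smchd1, Ptk2b and Taf7 where not called were chosen after their values were seen. The members and lists were chosen with earlier results of these data known.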

Additional observations from a re-analysis of the deposited data

Results flagged for a closer look

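The genotype difference in mDA at 8 against 4 months was -2.47 for Pcdhb15 and -2.44 for Pcdhgb8 on the log2 scale, each past the adjusted threshold in a test of the difference itself (edgeR).

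Single libraries stood apart from the rest of their group in 14 of 120 combinations of 15 measures and 8 groups. The rule used compares a gap with the group's range, and gives about 1 in 20 by chance for independent, normally spread values. Several of these measures are low counts, and sums stand beside their own members. The 14 therefore cannot be read against that rate. Among the sums, the beta genes were at 121 CPM in mDA mutant C213 (4 months, next 191), the gamma A genes at 11.2 CPM in 5HT wt S374 (4 months, next 36.1), the gamma B genes at 41.9 CPM in 5HT mutant S427 (4 months, next 15.0) and the gamma C-type genes at 66.3 CPM in 5HT wt S367 (4 months, next 30.2). The last went with Pcdhgc4 at 61.2 CPM in the same library (next 26.7).

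Among single genes in mDA wt at 4 months, Pcdhac1 was at 6.02 CPM in D296 (next 2.71), Pcdhgb8 at 10.1 CPM in D295 (next 4.93) and Pcdhb15 at 14.4 CPM in D943 (next 7.28). At 8 months in mDA wt, Pcdhb13 was at 18 CPM in C250 (next 5.92) and Pcdhb2 at 2.90 CPM in C45 (next 1.13). Pcdhgc3 was at 6.86 CPM in mDA mutant C214 at 4 months (next 2.60). In 5HT, Pcdhb13 was at 3.56 CPM in mutant S427 at 4 months (next 0.155) and at 1.71 CPM in mutant S442 at 8 months (next 0.328), and Pcdhb2 at 0.207 CPM in wt S381 at 8 months, where the other 3 libraries had 0 counts.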

How the results depend on the processing

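The share of all genes called is not given for the alternatives below, so their counts of called members have no background beside them. With RLE scaling, without a filter on low counts and without a set term, every count of called members was within 1.5 times its main value. In wt mDA against wt 5HT 27 members were called (25 higher), and 16 (14 higher) at 4 months alone, 16 (14 higher) at 8 months alone and 14 (12 higher) with set1 mDA libraries alone, all 3 chosen after seeing the data and made of fewer samples. Pcdhga2 reversed to -0.035 at 8 months alone. Leaving out single libraries gave 24 to 29 called (22 to 27 higher), and 21 of 27 genes were called each time. The mDA difference between ages gave 2 members, 0 without a sex term, and 1 to 2 with a library left out. DESeq2 called 2 members in the genotype difference between cell types at 4 months, 3 between ages in wt mDA and 1 between ages in wt 5HT, and set1 alone gave 2 in mDA at 4 months, each against 0, and the cause was not tested. Leaving out a library gave 0 to 2 between ages in wt mDA (2 without D833: Pcdhb21 and Pcdhb19), 0 to 1 in the difference between cell types at 4 months (1 without S429: Pcdhga4), and 0 in the other comparisons. For the comparisons of all 51 libraries, leaving out single mDA libraries was not run. No paired analysis was possible because the groups share no replicate numbers. Depth limits the lowest genes most, since 3 counts were worth 0.471 to 1.07 CPM in 5HT libraries and 0.245 to 1.82 CPM in mDA libraries.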
